A study of Mus musculus with 2 samples.

Results

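The genes of the elastic fibre were followed across the cells of denervated mouse muscle. The members are Eln, Fbn1, Fbn2, Fbln1, Fbln2, Fbln5, Mfap4, Mfap5, Lox and Loxl1, 10 of the 32287 features in the matrix, and they were chosen by name as the core, scaffold, adaptor and crosslinking genes of this structure. The tibialis anterior and gastrocnemius of the hind limb came from 2-month-old male S100GFPtg mice, 7 days post injury (dpi) by crush of the sciatic nerve. In S100GFPtg mice the S100B promoter drives enhanced green fluorescent protein, and the library is labelled WT, in contrast to the Sod1-/- mice that the study also bred. Cells freed by enzymes were sorted as GFP+ and PI-, PI being propidium iodide, a dye that enters dead cells, and were sequenced as 1 droplet library of 3' tags. The methods speak of pooled animals and the series description of a single crushed one, so the number of animals is uncertain, and the group has 1 library and no replicate. The GFP- library was not analysed here. An uninjured group was not analysed here either, so no value below is a response to the crush.

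Elastic fibres give stretch and recoil to vessels, skin, lung and the connective tissue around muscle. Cells secrete tropoelastin, the product of Eln, which is deposited on a scaffold of microfibrils built from fibrillins. Fibulins and microfibril-associated glycoproteins bind both parts and help to join them. Lysyl oxidases then crosslink the tropoelastin into an insoluble polymer, and also crosslink collagen. Microfibrils exist without elastin in some tissues, tendon among them in part, so that fibrillin and elastin need not come from the same cells. In the RefSeq annotation of build GRCm38.p6, Eln lies at chr5:134702595-134747368, Fbn1 at chr2:125300594-125506485, Fbln1 at chr15:85205949-85286294, Fbln2 at chr6:91212460-91272540, Fbln5 at chr12:101746565-101819119, Mfap4 at chr11:61485431-61488708, Mfap5 at chr6:122513584-122529290 and Loxl1 at chr9:58287723-58313212, and the counts cover each gene as a whole.

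The promoters of members that behaved in opposite ways in 2 fibroblast subtypes are shown first. Fbn1 was one of the genes whose highest class was the adventitial-like cells, and Fbln1 was one that was low there. RefSeq promoters of build GRCm38.p6 were matched for 4 of the 10 members (Fbn1, Fbln1, Fbln2 and Fbln5). Each window runs from 250 to 51 bases before the start, 5′ to 3′ on the strand of the gene, and capitals mark a match to 1 of the 6 motifs searched on both strands, none of which overlapped another in these windows.
Fbn1, chr2:125506489-125506688, minus strand: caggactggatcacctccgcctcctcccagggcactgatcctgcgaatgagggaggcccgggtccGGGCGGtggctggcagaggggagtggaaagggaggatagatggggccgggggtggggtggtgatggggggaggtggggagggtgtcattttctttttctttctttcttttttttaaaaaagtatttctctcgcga
Fbln1, chr15:85205699-85205898, plus strand: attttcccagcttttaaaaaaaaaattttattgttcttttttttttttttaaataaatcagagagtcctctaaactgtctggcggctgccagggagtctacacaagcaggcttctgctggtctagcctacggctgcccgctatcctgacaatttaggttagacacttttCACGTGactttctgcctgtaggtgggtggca
The Fbn1 window held 1 GC box (GGGCGG), which 24.6% of 32851 promoter windows of the same length held, and 58% of its bases were G or C against a median of 51.5%. The printed Fbln1 window held 1 E-box of the form CACGTG, found in 4.34% of windows, and 42% of its bases were G or C. A second, overlapping Fbln1 window, at chr15:85205758-85205957, held the same E-box and was 58% G or C, as the Fbn1 window was. The TATA box (TATAAA, 9.14% of windows), the CCAAT box (CCAAT, 28.4%), the AP-1 site (TGANTCA, 5.57%) and the E-box CAGCTG (10.3%) were not found in these 3 windows. Of the other matched members, 1 of the 2 Fbln5 windows held a GC box and a CCAAT box, and the Fbln2 window held none of the 6 motifs. These matches describe the letters only.

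Of 36400 barcodes, 18528 had at least 2000 unique molecular identifiers (UMIs), more than 200 genes and under 10% mitochondrial counts, with a median of 4364 UMIs. Both libraries listed 372 of the same barcodes, 1.02% of those in the GFP+ library. Cells were put in classes by the UMIs of marker genes, and 2089 barcodes that passed the gates of more than 1 class were left out. Although the sort was for GFP under a Schwann cell promoter, 9357 of the kept barcodes (50.5%) were monocyte/macrophage-like, 3450 (18.6%) fibroblast-like, 797 (4.30%) tenocyte-like and 117 (0.631%) Schwann-like. Within the fibroblast-like cells, 539 fell in the Pi16 Dpp4 (adventitial-like) gate, 502 in the Smoc2 Cxcl14 Hsd11b1 (parenchymal-like) gate, 330 in the Dkk2 Bmper Lsamp gate and 215 in the Gdf10 Inmt gate. A further 98 cells passed a gate on Apod, Tenm2, Col28a1 and Smim41 and are called nerve-sheath-like, 86 were smooth muscle-like, 85 endothelial-like, 303 satellite cell and myoblast-like, 59 muscle fibre-like, 271 dendritic-like and 95 erythroid-like. In each such gate at least 2 of the gate's own markers stood among the 10 genes with the highest fold over all other cells. Cells were gated on these markers, so that result was built in and is no check of the names. The nerve-sheath-like cells also had Fetub, Dio3 and Cxcl14 among their 10 genes, and these led the parenchymal-like gate too. Only 13 pericyte-like cells were found, so mural cells are described by the smooth muscle-like gate.

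A level is given in CPM (counts scaled to a fixed total), the UMIs of a gene summed over a class scaled to 1000000 UMIs of that class, with its exact Poisson 95% interval. A difference is given as the log2 ratio of 2 such levels, with an exact conditional 95% interval, and is called when it is at least 2-fold and the mean of both levels is at least 10 CPM. Both intervals cover counting error only. No test over samples could be made from a single library, so no p-value is given. Because 3' tags are not scaled to transcript length, levels are compared between classes for 1 gene and not between genes.

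Barcodes with 2000 to 5000 UMIs carried a higher sum of monocyte and macrophage markers in every class described here but the monocyte/macrophage-like class itself. Markers of monocytes and macrophages, 13 genes, reached a sum of 4717 CPM in such fibroblast-like cells and of 709 CPM in fibroblast-like cells with at least 5000 UMIs, called deep here. Deep cells of the monocyte/macrophage-like class itself reached 24915 CPM. In the other direction, the sum of the 9 fibroblast markers was 3340 CPM in the shallow and 159 CPM in the deep cells of that class. Not every list was higher in shallow cells, since in Schwann-like cells the fibroblast markers summed to 2258 CPM in shallow and 2736 CPM in deep ones. The level in deep cells is therefore given wherever it changes the reading. Subtracting a share of the library's profile, set by the list of markers lowest relative to the library or by the macrophage list, changed no count of members at least 2-fold higher or lower in the comparisons below.

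**Figure D1:**
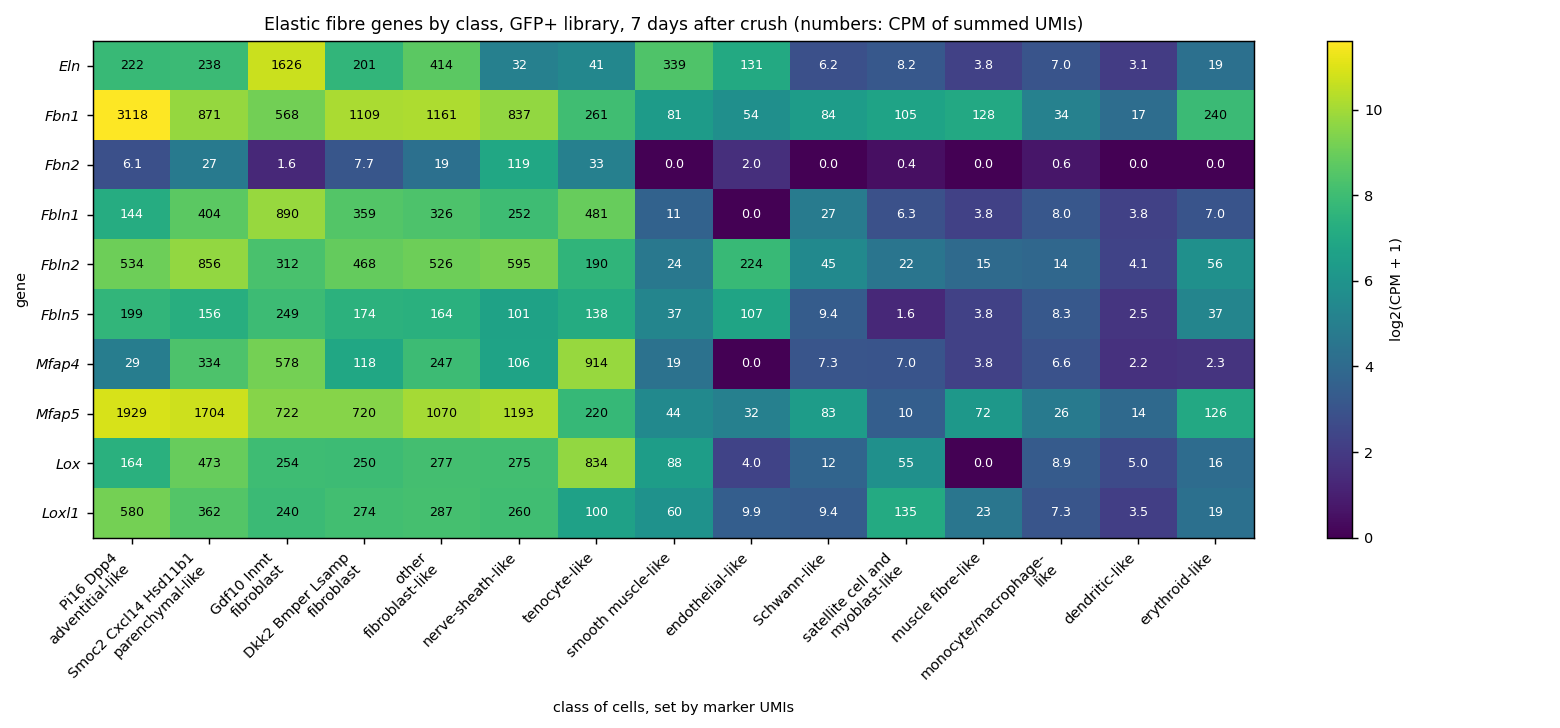
Level of each of the 10 genes (rows) in each of 15 classes of cells (columns) of the GFP+ library, as log2(CPM + 1) in colour with the CPM printed in each field. Eln was highest in the Gdf10 Inmt fibroblasts (1626 CPM), Fbn1 in the Pi16 Dpp4 adventitial-like cells (3118 CPM), Fbn2 in nerve-sheath-like cells (119 CPM), and Mfap4 and Lox in tenocyte-like cells (914 and 834 CPM).

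Eln, which encodes the elastic core itself, was highest in a small fibroblast subtype. The Gdf10 Inmt fibroblasts, 215 cells, held 2089 of the 10117 Eln UMIs of fibroblast-like cells, or 1626 CPM (95% interval 1557 to 1697), compared with 313 CPM (306 to 320) in the other fibroblast-like cells, a log2 ratio of 2.38 (2.31 to 2.45). The gate did not use Eln, yet in these cells Eln came next after Inmt and Gdf10 among the genes with the highest fold. That fold was taken over all other kept barcodes of every class, not over other fibroblast-like cells. The remaining fibroblast gates lay close together, at 238 CPM (223 to 254) in parenchymal-like, 222 CPM (211 to 234) in adventitial-like and 201 CPM (186 to 217) in Dkk2 Bmper Lsamp cells, and the interval of the ratio between the first 2 of these included 0. Fibroblast-like cells outside the 4 subtype gates or in more than 1 of them held 5045 Eln UMIs or 414 CPM (402 to 425), second in the order of classes.

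Within each class Eln UMIs were unevenly spread over cells. In the Gdf10 Inmt gate 56 of 215 cells held 10 or more Eln UMIs, and the 19 cells with the most Eln UMIs held as many as the rest of the gate together, or more. With each cell thinned to 2000 UMIs, 69.3% of these cells had an Eln UMI (exact binomial interval 62.7 to 75.4%), compared with 26.5% (22.8 to 30.5%) of adventitial-like and 23.5% (19.9 to 27.5%) of parenchymal-like cells. Without thinning the share in the Gdf10 Inmt gate was 82.8% at a median of 3808 UMIs. Monocyte/macrophage-like and dendritic-like cells gave 2.74% (2.42 to 3.09%) and 1.85% (0.602 to 4.25%) after thinning, with medians of 7314 and 11588 UMIs before it.

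Smooth muscle-like cells, the classic elastin makers of arteries, held 339 CPM of Eln (295 to 389) from 209 UMIs, which was not separable from all fibroblast-like cells together at 376 CPM (368 to 383), the log2 ratio being -0.15 (-0.35 to 0.05), 0.07 in deep cells, -0.54 with barcodes of several gates kept and -0.59 with cells weighted equally. Its level in the 45 deep cells was 388 CPM. The value rested on few cells: 37 of 86 had an Eln UMI, the 4 highest held 49, 19, 19 and 18 UMIs, and 104 UMIs lay outside these 4. It also moved with the mitochondrial share, since the 64 cells with 5 to 10% mitochondrial counts held 389 CPM (337 to 446) and the 22 cells under 5% held 72.6 CPM (29.2 to 150) from 7 UMIs. Those 22 cells had a median of 2632 UMIs against 8429 in the 64, and a smooth muscle marker sum of 7332 CPM against 27585 CPM, and the part of either in the difference was not tested.

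In endothelial-like cells Eln stood at 131 CPM (101 to 167) from 66 UMIs, of which 32 came from 2 cells with 20 and 12 UMIs. In deep endothelial-like cells the level was 175 CPM, where the fibroblast markers summed to 141 CPM. The 18 endothelial-like cells with 5 to 10% mitochondrial counts held 285 CPM and the 67 under 5% held 86.9 CPM. Tenocyte-like cells held 40.9 CPM (36.0 to 46.3) and nerve-sheath-like cells 31.8 CPM (21.8 to 44.9), so both mesenchymal classes lay far below every fibroblast subtype for elastin while Fbn2 and Lox were at fibroblast levels or above in both. Satellite cell and myoblast-like, Schwann-like, muscle fibre-like, monocyte/macrophage-like and dendritic-like cells ranged from 3.14 to 8.22 CPM. Deep monocyte/macrophage-like cells held 1.87 CPM (1.56 to 2.23) against 6.96 CPM in the whole class, and the deep level was 1.18 CPM from 1 UMI in Schwann-like and 0.673 CPM from 2 UMIs in dendritic-like cells.

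Fbn1, the main fibrillin of adult microfibrils, followed another order. It reached 3118 CPM (3075 to 3162) in adventitial-like cells from 19955 UMIs, where 97.6% of cells (95.9 to 98.7%) had a UMI at 2000 UMIs per cell. The next classes were the fibroblast-like cells outside the subtype gates at 1161 CPM (1142 to 1180), the Dkk2 Bmper Lsamp cells at 1109 CPM (1073 to 1146) and the parenchymal-like cells at 871 CPM (841 to 901). The Gdf10 Inmt fibroblasts, which led for Eln, were the lowest fibroblast subtype for Fbn1 at 568 CPM (528 to 611). Parenchymal-like and nerve-sheath-like cells (837 CPM, 781 to 896) did not differ beyond counting error.

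Outside the fibroblasts Fbn1 was lower. Tenocyte-like cells held 261 CPM (249 to 274). Satellite cell and myoblast-like cells held 105 CPM (93.1 to 119), and 106 CPM in their deep cells, where the fibroblast markers summed to 1365 CPM. Smooth muscle-like cells fell from 81.2 CPM in all cells to 40.2 CPM in deep ones, monocyte/macrophage-like cells from 33.6 to 8.53 CPM and erythroid-like cells from 240 to 29.0 CPM, so that shallow barcodes carried most of the Fbn1 seen in these 3 classes. With cells thinned, 10.8% (10.1 to 11.4%) of monocyte/macrophage-like and 5.90% (3.41 to 9.41%) of dendritic-like cells had an Fbn1 UMI. The shares of erythroid-like cells at 31.6% (22.4 to 41.9%) and of muscle fibre-like cells at 23.7% (13.6 to 36.6%) lay above these. The 13 deep erythroid-like cells held 6 Fbn1 UMIs, and the 10 deep muscle fibre-like cells held none, with an upper limit of 29.9 CPM, so these cells are too few to place either class.

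Fbn2, the fibrillin best known from development, was the rarest member with 1101 UMIs in the matrix. Nerve-sheath-like cells held 119 CPM (98.9 to 143) from 120 UMIs, and 4 of the 98 cells held as many of these UMIs as all others together, or more. After thinning, 17.3% (10.4 to 26.3%) of nerve-sheath-like cells had a UMI, compared with 5.77% (4.26 to 7.62%) of tenocyte-like, 4.78% (3.09 to 7.03%) of parenchymal-like and 0.214% (0.131 to 0.330%) of monocyte/macrophage-like cells. In deep cells the shares of nerve-sheath-like cells at 10.0% (3.33 to 21.8%) and of tenocyte-like cells at 8.19% (5.70 to 11.3%) did not separate, while the levels were 112 CPM (90.7 to 136) and 36.1 CPM (31.0 to 41.7). Tenocyte-like cells at 32.5 CPM (28.2 to 37.3) and parenchymal-like cells at 26.5 CPM (21.6 to 32.2) came next and did not differ beyond counting error. Adventitial-like cells, highest for Fbn1, held 6.09 CPM of Fbn2 (4.33 to 8.33), and the Gdf10 Inmt gate held 2 UMIs.

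No Fbn2 UMI was found in the smooth muscle-like cells, where the upper limit was 5.99 CPM. The same held for Schwann-like, muscle fibre-like, dendritic-like and erythroid-like cells. At these depths an Fbn2 level of several CPM would not have been detectable in the smaller classes.

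**Figure D2:**
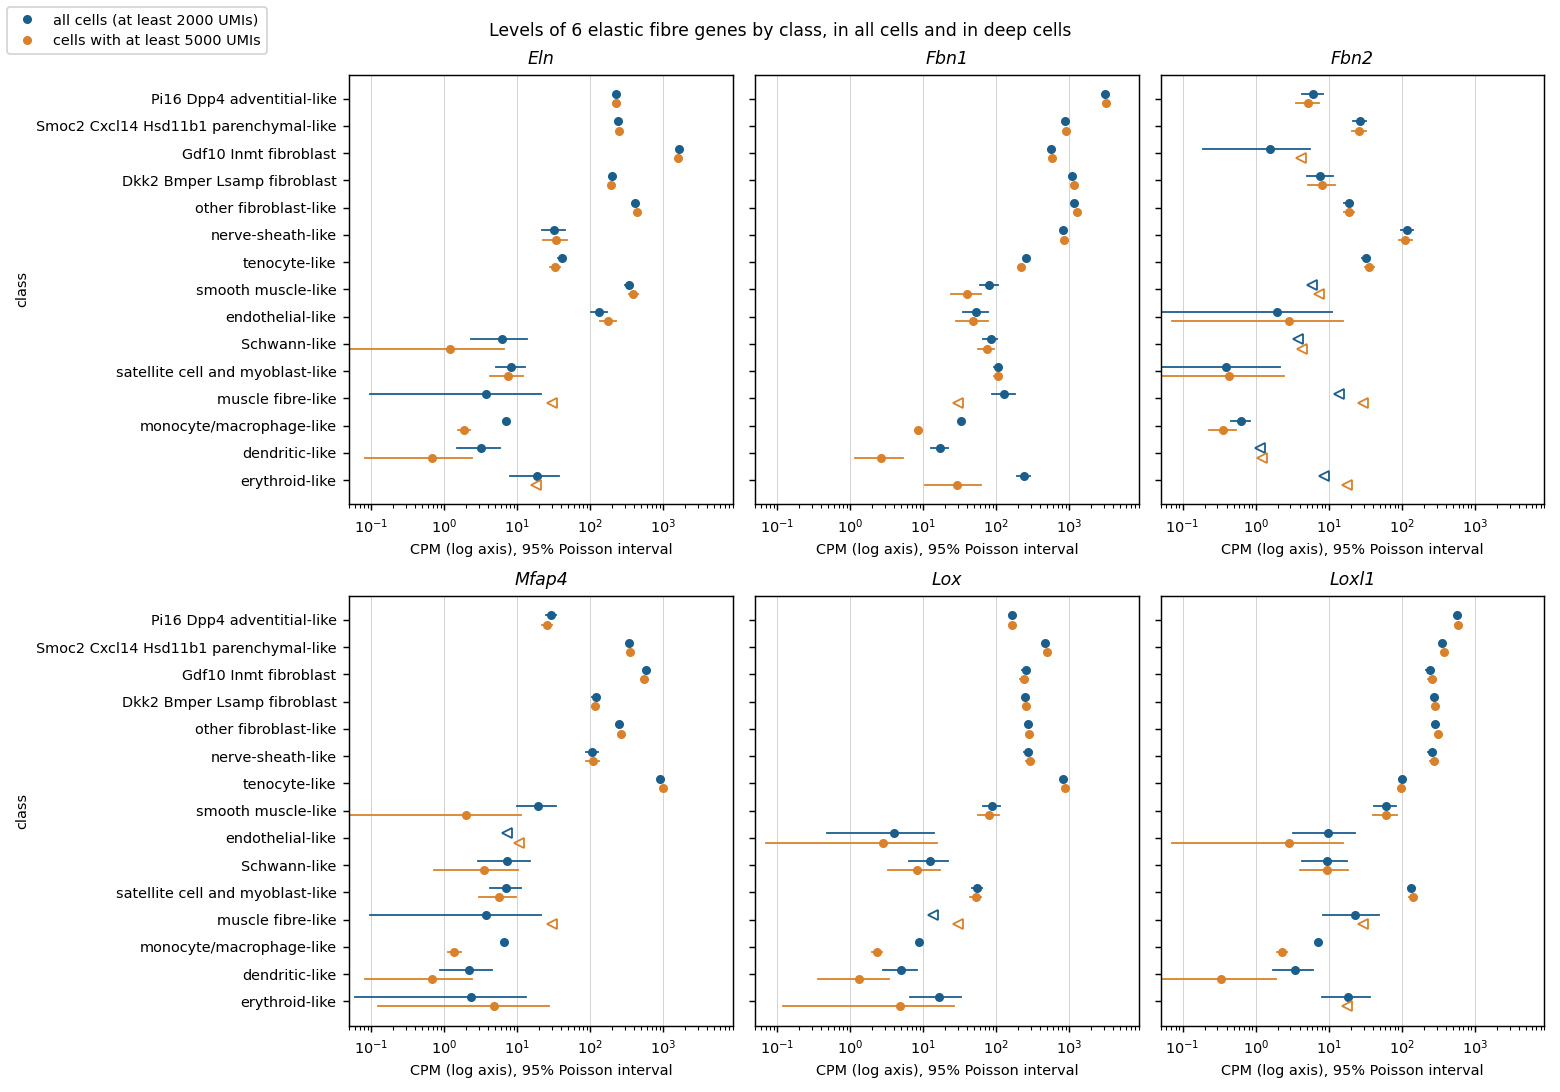
CPM on a log axis, with 95% Poisson intervals, of Eln, Fbn1, Fbn2, Mfap4, Lox and Loxl1 in 15 classes, in all cells (blue) and in cells with at least 5000 UMIs (orange). Open triangles mark the upper limit of a class with no UMI, and intervals that reach below 0.05 CPM end at the axis. The levels of the fibroblast and tenocyte classes lay close together in both sets, except Fbn2 in the Gdf10 Inmt gate, which had no UMI in deep cells, while those of monocyte/macrophage-like and dendritic-like cells were lower in deep cells, except Fbn2 in dendritic-like cells, which had no UMI in either set.

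The 3 fibulins, adaptor proteins of the basement membrane and of elastic fibres, each had an order of their own. Fbln1 was highest in the Gdf10 Inmt fibroblasts at 890 CPM (839 to 943), followed by tenocyte-like cells at 481 CPM (464 to 499) and parenchymal-like cells at 404 CPM (384 to 424). Adventitial-like cells were the lowest fibroblast subtype at 144 CPM (134 to 153). No Fbln1 UMI was found in endothelial-like cells, with an upper limit of 7.33 CPM.

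Fbln2, which binds fibrillin and basement membrane proteins, was highest in parenchymal-like cells at 856 CPM (827 to 886) and next in nerve-sheath-like cells at 595 CPM (549 to 645). Adventitial-like cells at 534 CPM (516 to 552) and the fibroblast-like cells outside the subtype gates at 526 CPM (513 to 539) did not differ beyond counting error. Endothelial-like cells held 224 CPM (185 to 270), and 215 CPM in deep cells. That level was spread over the class, since 54.1% of endothelial-like cells had a UMI before thinning and 30.6% (21.1 to 41.5%) after it, against 5.62% (5.16 to 6.11%) of monocyte/macrophage-like cells.

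Fbln5, which links tropoelastin to cells and microfibrils and is needed for elastic fibre assembly, had the flattest profile over the 4 fibroblast subtype gates, from 156 CPM (144 to 169) in parenchymal-like to 249 CPM (223 to 278) in Gdf10 Inmt cells. Tenocyte-like cells (138 CPM, 129 to 148) and endothelial-like cells (107 CPM, 80.6 to 140) were neighbours in the order and did not differ beyond counting error, nor did endothelial-like and nerve-sheath-like cells (101 CPM, 82.7 to 123). In the endothelial-like class, 4 of 85 cells held as many Fbln5 UMIs as all others together, or more. After thinning, 10.6% (4.96 to 19.15%) of endothelial-like and 22.6% (19.7 to 25.65%) of tenocyte-like cells had a UMI. Smooth muscle-like cells held 37.3 CPM (23.7 to 56.0) and satellite cell and myoblast-like cells 1.57 CPM (0.427 to 4.01).

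Mfap4 and Mfap5, glycoproteins that bind fibrillin and elastin, went in different directions between classes. Mfap4 was highest in tenocyte-like cells at 914 CPM (891 to 939), then in the Gdf10 Inmt fibroblasts at 578 CPM (537 to 621) and in parenchymal-like cells at 334 CPM (316 to 353). Adventitial-like cells held 28.9 CPM (24.9 to 33.4), the lowest fibroblast level, and 7.61% of them (5.51 to 10.2%) had a UMI after thinning against 3.06% (2.72 to 3.43%) of monocyte/macrophage-like cells. Endothelial-like cells had no Mfap4 UMI, with an upper limit of 7.33 CPM.

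Mfap5 was highest in adventitial-like cells at 1929 CPM (1895 to 1963) and nearly as high in parenchymal-like cells at 1704 CPM (1662 to 1746), followed by nerve-sheath-like cells at 1193 CPM (1126 to 1262). The Gdf10 Inmt and Dkk2 Bmper Lsamp gates, at 722 CPM (676 to 770) and 720 CPM (691 to 750), did not differ beyond counting error. Tenocyte-like cells held 220 CPM (209 to 232). In smooth muscle-like cells the level fell from 43.8 CPM in all cells to 4.01 CPM in deep ones, and in erythroid-like cells from 126 to 9.65 CPM.

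Lox and Loxl1, the lysyl oxidases that crosslink elastin and collagen, were highest in different classes. Lox reached 834 CPM (811 to 857) in tenocyte-like cells and 473 CPM (451 to 495) in parenchymal-like cells, while adventitial-like cells held 164 CPM (154 to 174). The fibroblast-like cells outside the subtype gates, nerve-sheath-like, Gdf10 Inmt and Dkk2 Bmper Lsamp cells lay between 250 and 277 CPM, and no neighbours among these 4 differed beyond counting error. Loxl1, which is known to be needed for elastic fibre upkeep, reached 580 CPM (561 to 599) in adventitial-like cells and 362 CPM (343 to 381) in parenchymal-like cells, and tenocyte-like cells held 99.6 CPM (91.9 to 108).

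Satellite cell and myoblast-like cells, the muscle stem cells and their progeny, carried both lysyl oxidases. Loxl1 stood at 135 CPM (121 to 150) from 345 UMIs, above tenocyte-like cells, and 17.8% of the 303 cells (13.7 to 22.6%) had a UMI after thinning, compared with 3.03% (2.70 to 3.40%) of monocyte/macrophage-like and 1.48% (0.404 to 3.74%) of dendritic-like cells. Lox stood at 55.2 CPM (46.5 to 65.1), with a UMI in 10.2% of cells (7.06 to 14.2%) against 3.88% (3.50 to 4.29%) of monocyte/macrophage-like cells. Deep cells gave 142 CPM of Loxl1 and 52.4 CPM of Lox. Among the other members, Fbn1 stood at 105 CPM over the whole class, above Lox, with Fbln2 at 21.5 CPM and Mfap5 at 10.2 CPM. Eln, Fbln1, Fbln5 and Mfap4 were between 1.57 and 8.22 CPM, and Fbn2 had 1 UMI.

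Schwann-like cells, the cells for which the reporter was built, held little of any member. Fbn1 at 84.2 CPM (66.9 to 105) and Mfap5 at 83.2 CPM (66.0 to 104) were the only members over 50 CPM, and 4 and 3 of the 117 cells held as many of their UMIs as all other cells together, or more. Fibroblast markers summed to 2736 CPM in deep and 2258 CPM in shallow Schwann-like cells, and their part in these levels was not tested.

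**Figure D3:**
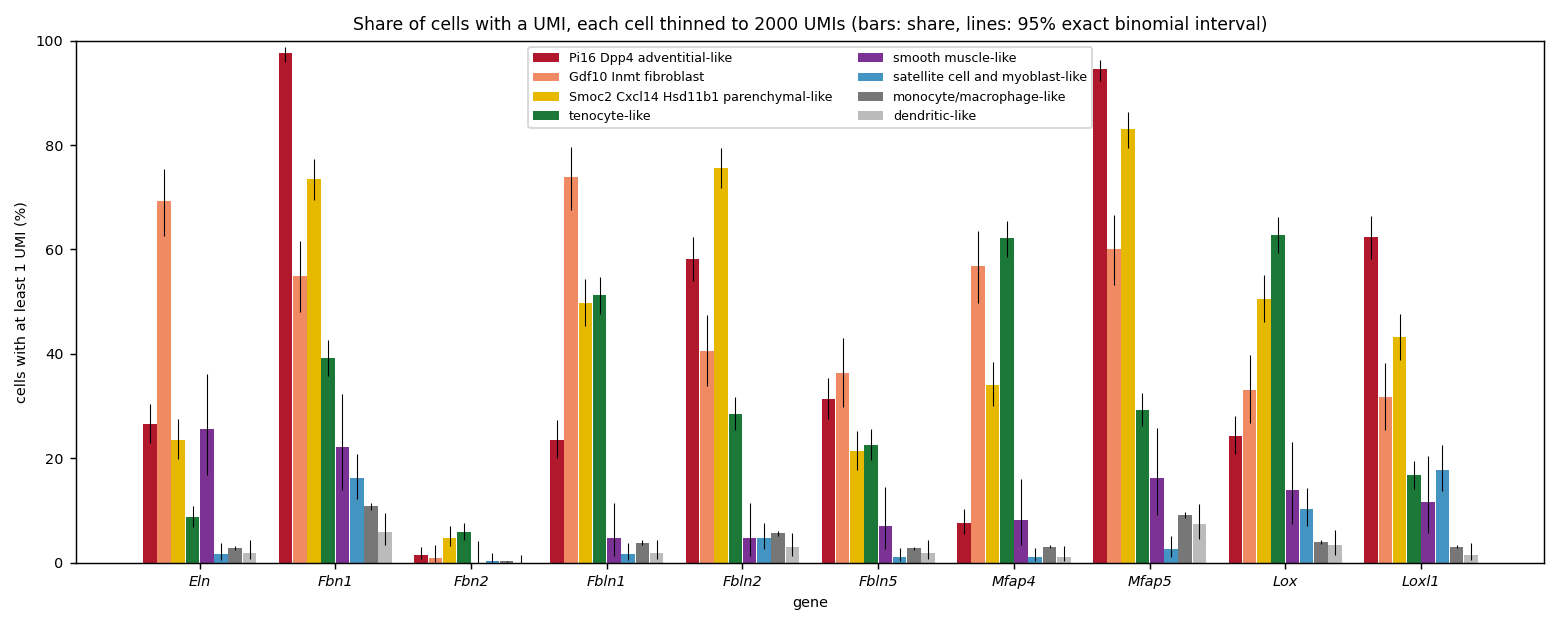
Percent of cells with at least 1 UMI of each gene in 8 classes, after each cell was thinned to 2000 UMIs, with exact binomial 95% intervals as lines. Grey bars give monocyte/macrophage-like and dendritic-like cells, which stay at or under 10.8% for every gene, while Fbn1 reached 97.6% of adventitial-like and Eln 69.3% of Gdf10 Inmt cells.

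The first comparison asked how the 2 best known fibroblast subtypes of muscle, the adventitial-like cells around vessels and fascia and the parenchymal-like cells between fibres, divide these genes. Fbn1 was at least 2-fold higher in adventitial-like cells and Fbn2, Fbln1, Mfap4 and Lox were at least 2-fold lower, that is 1 member higher and 4 lower of 10, against 6.47% of 8412 tested features higher and 6.26% lower. The log2 ratio of Fbn1 was 1.84 (1.79 to 1.89). Mfap4 had the largest difference at -3.53 (-3.76 to -3.31), or 11.6-fold lower, and -2.80 when each cell was weighted equally. Fbn2, Lox and Fbln1 followed at -2.12 (-2.69 to -1.58), -1.53 (-1.64 to -1.42) and -1.49 (-1.61 to -1.37). Loxl1 at 0.68 and Fbln2 at -0.68 differed by less than 2-fold, as did Fbln5 at 0.35 and Mfap5 at 0.18, and Eln at -0.10 (-0.22 to 0.02) did not differ beyond counting error, though with the stricter gate its ratio was 0.48. The median over the members was -0.39 against 0.02 over all tested features. Tenocyte markers summed to 1517 CPM in deep parenchymal-like and 68.3 CPM in deep adventitial-like cells, and their part in the differences of Mfap4, Fbn2, Lox and Fbln1, all higher in tenocyte-like than in adventitial-like cells, was not tested.

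The Gdf10 Inmt fibroblasts were compared with the other fibroblast-like cells after their Eln level had been seen. Besides Eln, Mfap4 at a log2 ratio of 1.61 (1.50 to 1.72) and Fbln1 at 1.59 (1.50 to 1.68) were at least 2-fold higher, and Fbn1 at -1.49 (-1.60 to -1.39) was lower, so that apart from Eln, for which the comparison was chosen, 2 members were higher and 1 lower, beside 2.31% of 8516 tested features higher and 4.1% lower. In deep cells Fbln2 was also called lower, at -1.04 against -0.87 in all cells. Fbn2, with 2 UMIs, was below the level needed for a call, at -3.30 (-6.35 to -1.44). The interval of Lox, at -0.11 (-0.27 to 0.05), included 0.

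Tenocyte-like cells, the cells of tendon and myotendinous tissue, were compared with all fibroblast-like cells together. Mfap4 with a log2 ratio of 2.14 (2.09 to 2.19), Lox with 1.61 (1.56 to 1.66) and Fbn2 with 1.14 (0.89 to 1.39) were at least 2-fold higher. Eln at -3.20 (-3.38 to -3.02), Fbn1 at -2.57 (-2.64 to -2.50), Mfap5 at -2.56 (-2.64 to -2.49), Loxl1 at -1.87 (-1.99 to -1.75) and Fbln2 at -1.55 (-1.64 to -1.46) were lower. That made 3 members higher and 5 lower, against 6.23% of 8727 tested features higher and 9.24% lower, with a median of -0.95 over the members and -0.00 over all tested features. The call of Fbn2 was the weakest, since its ratio was 0.74 with the stricter gate, 0.86 with cells weighted equally and 0.97 with barcodes of several gates kept. Between the paired genes, the fibrillins, the glycoproteins and the lysyl oxidases each split, with Fbn2, Mfap4 and Lox on the tenocyte side and Fbn1, Mfap5 and Loxl1 on the fibroblast side.

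Smooth muscle-like cells held Eln near the fibroblast level and most other members at lower levels. Of the 9 members that were tested against fibroblast-like cells, 8 were at least 2-fold lower and none was higher, against 16.8% of 8808 tested features lower and 15.7% higher. Mfap5 at -4.90 (-5.50 to -4.35), Fbln1 at -4.84 (-6.15 to -3.79), Fbln2 at -4.52 (-5.35 to -3.79) and Fbn1 at -4.26 (-4.69 to -3.86) were the lowest. Lox at -1.64 (-2.06 to -1.26), Fbln5 at -2.24 (-2.90 to -1.65) and Loxl1 at -2.60 (-3.10 to -2.13) were lower by less, and their levels hardly moved in deep cells for Lox (87.7 and 80.3 CPM) and Loxl1 (60.1 and 60.2 CPM). For Fbn2, with 0 UMIs, the upper limit of the log2 ratio was -1.29. In the 22 smooth muscle-like cells under 5% mitochondrial counts the log2 ratio of Eln was -2.39, so that its nearness to the fibroblast level held in the 64 other cells and not in these.

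In deep smooth muscle-like cells few UMIs of these genes were left, 20 of Fbn1, 2 of Mfap5 and 1 each of Fbln2, Fbln1 and Mfap4. The log2 ratio to deep fibroblast-like cells was -5.42 (-6.13 to -4.79) for Fbn1 and -8.47 (-11.51 to -6.62) for Mfap5. With 1 UMI each, Fbln2 stood at -8.19 (-13.50 to -5.72), Fbln1 at -7.36 (-12.67 to -4.88) and Mfap4 at -6.66 (-11.96 to -4.18), intervals that for Fbln1 and Mfap4 overlapped those of all cells. Fibroblast markers summed to 4390 CPM in shallow and 614 CPM in deep smooth muscle-like cells, and their part in the lower levels was not tested.

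Nerve-sheath-like cells differed from the other fibroblast-like cells beyond counting error in 8 members, but by 2-fold or more in 2. Fbn2 was higher, with a log2 ratio of 3.02 (2.71 to 3.32), and Eln was lower, with -3.56 (-4.11 to -3.06), 1 member in each direction against 5.77% of 8705 tested features higher and 5.64% lower. Parenchymal markers summed to 11508 CPM in nerve-sheath-like and 2109 CPM in the other fibroblast-like cells. The parenchymal-like gate itself held 8507 CPM of them, less than the nerve-sheath-like cells. The part of these markers in the differences was not tested. Mfap4 at -0.96 (-1.25 to -0.69) lay just under 2-fold and Fbn1 at -0.89 (-0.99 to -0.79) close to it. Fbln5 at -0.80, Loxl1 at -0.48, Fbln1 at -0.37 and Mfap5 at -0.13 were lower by less. Lox at 0.01 (-0.17 to 0.18) and Fbln2 at 0.10 (-0.02 to 0.21) did not differ beyond counting error. The same pairing of a high Fbn2 with a low Eln was seen in tenocyte-like cells.

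A gate on the genes of activated fibroblasts (Postn, Cthrc1, Tnc, Lrrc15 and Adam12), set after the data were seen, held 360 of the fibroblast-like cells. Fbn2 was at 42.9 CPM (36.5 to 50.1) in these and at 10.2 CPM (8.92 to 11.6) in the rest, a log2 ratio of 2.08 (1.78 to 2.37). It was the 1 member called higher, against 1.31% of 8545 tested features, and no member was at least 2-fold lower, against 0.925%. Of the 360 activated cells, 8 held as many Fbn2 UMIs as all others together, or more. After thinning, 6.67% (4.32 to 9.76%) of activated cells had an Fbn2 UMI, compared with 2.14% (1.66 to 2.71%) of the rest. Lox at 0.90 (0.82 to 0.98), Mfap5 at 0.56 (0.52 to 0.60) and Fbln2 at 0.44 (0.38 to 0.50) were higher by less than 2-fold, and Eln at -0.75 (-0.85 to -0.65) and Fbln1 at -0.67 (-0.78 to -0.57) were lower by less than 2-fold. Tenocyte markers summed to 1610 CPM in deep activated cells and 231 CPM in the deep rest, and their part in these differences was not tested.

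**Figure D4:**
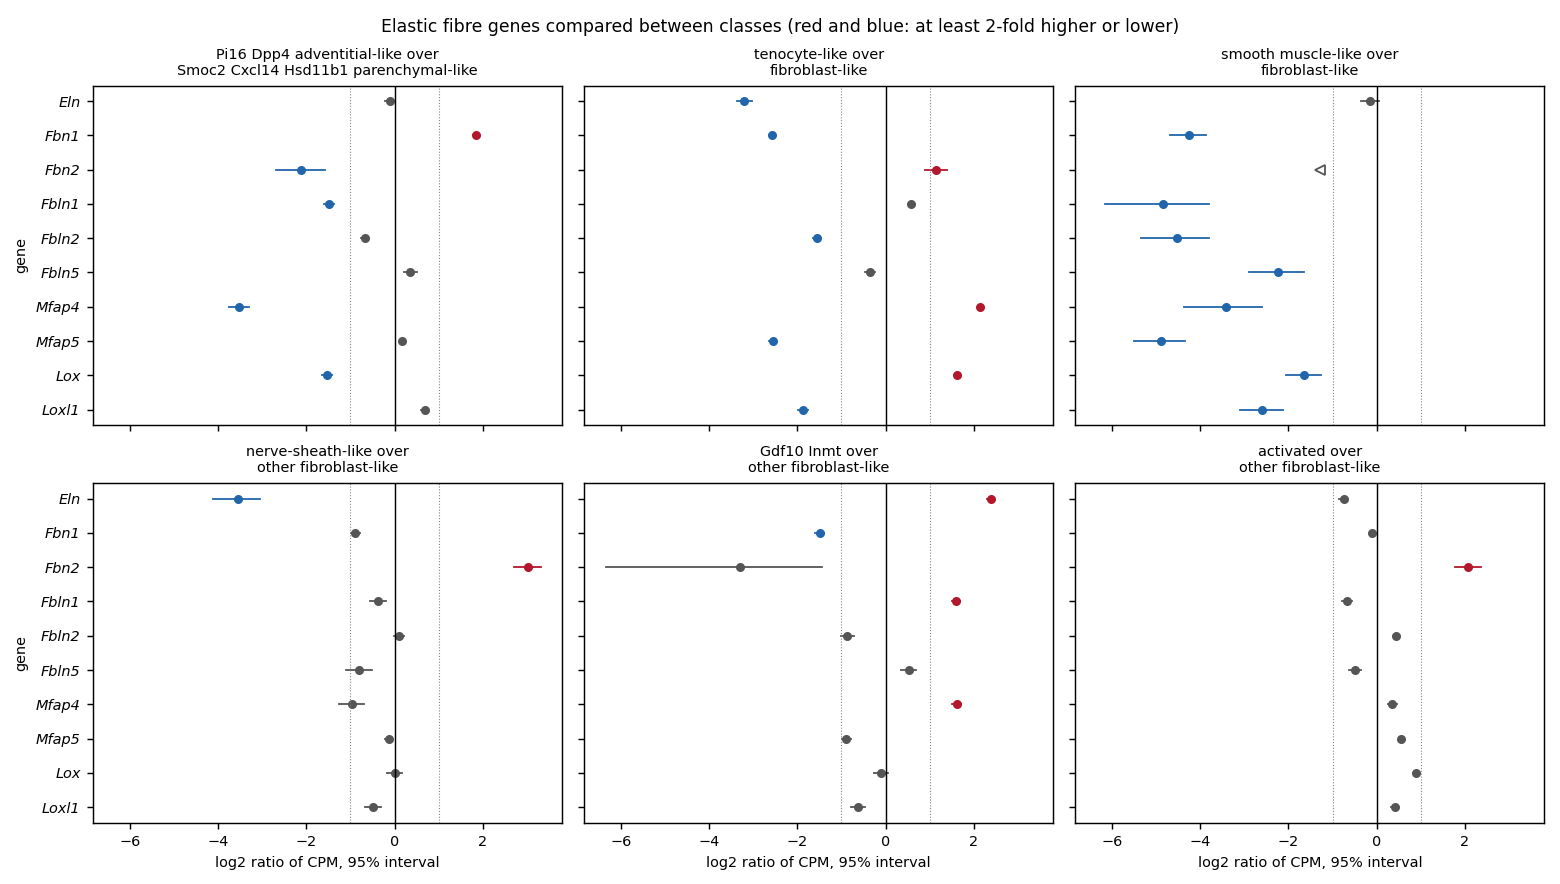
Log2 ratio of CPM, with 95% intervals for counting error, of the 10 genes in 6 comparisons of classes, with dotted lines at a 2-fold difference. Red marks genes at least 2-fold higher and blue genes at least 2-fold lower, and the open triangle is the upper limit of Fbn2 in smooth muscle-like cells, which had no UMI. Eln was at -0.15 in smooth muscle-like cells where 8 other members were lower, and Fbn2 was higher in tenocyte-like, nerve-sheath-like and activated cells.

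Other genes of the pathway, 50 in 7 lists, were counted beside the members. Between adventitial-like and parenchymal-like cells, 39 passed the level filter, and 9 were at least 2-fold higher and 6 lower, where 6.47% of all tested features were higher and 6.26% lower. Among other fibulins, EMILINs and microfibril glycoproteins, 2 of 10 tested were higher and 4 lower. They included Efemp1 (fibulin-3) at a log2 ratio of 2.42 and Emilin2 at 2.38, and Fbln7 at -4.03, Matn2 at -3.66 and Hmcn1 at -3.18. Fbln7 at 22.2 CPM, Matn2 at 62.1 CPM and Hmcn1 at 21.7 CPM were also found in tenocyte-like cells, whose markers were higher in the parenchymal-like gate, and the part of these markers was not tested. Of the microfibril-binding ADAMTS proteins 3 of 5 were higher, Adamtsl4 at 2.86, Adamtsl1 at 1.38 and Adamtsl5 at 1.05. Pcolce2, an enhancer of procollagen processing, at 2.98 and Loxl2 at 1.16 were the 2 of 5 higher in the list of lysyl oxidases and activators. Of the latent TGF-β binding proteins, which dock on microfibrils, Ltbp1 was higher at 2.42 and Ltbp4, which binds fibulin-5, was lower at -1.51. Itgb3 at 1.43 was higher among receptors, Ctsk at -1.16 was lower among degrading enzymes, and none of 5 genes of tropoelastin handling was at least 2-fold apart.

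In the Gdf10 Inmt fibroblasts 2.31% of all tested features were higher and 4.1% lower. Of 40 tested pathway genes 2 were higher, Ltbp4 at 1.30 (1.20 to 1.40) and Tll1, a protease that activates lysyl oxidases, at 1.06 (0.54 to 1.54), and 6 were lower. Ltbp4 was thus higher in the subtype where Eln was higher, and lower in the subtype where Fbn1 was higher. The lower ones were Hmcn1 at -1.93, Vcan at -1.73, Itgb3 at -1.30, Efemp1 at -1.12, Emilin2 at -1.11 and Loxl2 at -1.09.

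In tenocyte-like cells 4 of 44 tested pathway genes were higher and 12 lower, where 6.23% of all tested features were higher, a share near that of the pathway, and 9.24% lower. The integrin subunit gene Itga8 at 3.62, Thsd4, whose product binds fibrillin-1, at 2.07, Ltbp2 at 1.55 and Loxl4 at 1.11 were the higher ones. Efemp1 at -4.10, Vcan at -3.26 and Emilin2 at -3.20 were the 3 lower ones of the glycoprotein list, and Itgb3 at -3.52 was lower among receptors. In smooth muscle-like cells 3 of 41 were higher, Itga8 at 6.49 (6.15 to 6.83), Thsd4 at 5.76 (5.42 to 6.11) and Itgb1 at 1.41 (1.28 to 1.54), and 27 were lower, among them 4 of 5 degrading enzymes with Mmp2 at -5.53 and Ctsk at -5.40. Of all tested features 15.7% were higher and 16.8% lower there. Itga8 and Thsd4 were therefore higher than in fibroblast-like cells in both classes.

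In nerve-sheath-like cells the share of pathway genes called higher was near that of all tested features (5.77%). Of 40 pathway genes 2 were higher, Matn2, a matrix protein of peripheral nerve among other tissues, at 1.99 and Loxl3 at 1.37, and 5 were lower, against 5.64% of all features, with Pcolce2 at -5.14 the lowest. In activated cells 2 of 41 were higher, Ltbp2 at 2.85 and Fbln7 at 1.29, and Adamtsl3 at -1.06 was the 1 lower gene, where 1.31% of all features were higher and 0.925% lower.

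Across the 15 classes the members were alike to different degrees. Pearson's r of log2(CPM + 1) between 2 members ranged from 0.38 (Eln and Fbn2) to 0.96 (Fbln1 and Mfap4) over 45 pairs, with a median of 0.73. Fbn1 and Mfap5 had 0.94, Fbn1 and Loxl1 0.91, Fbln2 and Fbln5 0.91, and Eln was most like Fbln5 at 0.86. All points come from 1 library, and the immune, nerve and muscle classes are low for most members, so these values are descriptions. Outside the members and markers, the genes most like each member were Csrp2 (0.910) and Lamb2 (0.879) for Eln, Gfpt2 (0.986) and Fstl1 (0.969) for Fbn1, and Saa1 (0.911) and Tsku (0.871) for Fbn2. For the fibulins they were C1qtnf6 (0.970) and Igsf10 (0.966) for Fbln1, Lamb1 (0.963) and Gja1 (0.960) for Fbln2, and Tmtc1 (0.959) and Scn2a (0.952) for Fbln5. For the others they were Serpinf1 (0.944) and Tmem45a (0.939) for Mfap4, Thbs3 (0.967) and Has2 (0.960) for Mfap5, Slc39a7 (0.965) and Rcn3 (0.957) for Lox, and Islr (0.968) for Loxl1.

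The fibroblast-like class, 18.6% of kept barcodes, held between 41.4% (Mfap4) and 79.4% (Mfap5) of a member's UMIs. It held 79.2% of the Fbn1, 77.8% of the Eln, 76.1% of the Loxl1 and 74.5% of the Fbln2 UMIs of all kept barcodes. Tenocyte-like cells, 4.30% of barcodes, held 41.8% of the Mfap4, 33.4% of the Lox, 21.7% of the Fbn2 and 20.9% of the Fbln1 UMIs, but 1.95% of the Eln UMIs. Between 9.36% (Loxl1) and 17.0% (Fbn2) of a member's UMIs lay in barcodes that passed no gate or more than 1 gate.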

How the data were processed

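The GFP+ library was made with a 10x 3' HT kit, and the authors deposited its matrix of raw UMI counts per gene and barcode, not normalized. The matrix header names Cell Ranger 8.0.1 and the submitters' processing notes name Cell Ranger 7.1.0, Seurat 4.30 and the mm10 build, which is GRCm38, while the study also names GRCm39. The matrix gives no coordinates. Tags near 3' ends are counted per gene, so isoforms are not separated. Empty droplets were not used here.

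Barcodes were kept if they had at least 2000 UMIs, over 200 genes and less than 10% of counts from mitochondrial genes. A class asked for a minimum of UMIs, genes and CPM over its marker list. No doublet caller was run, and barcodes that passed several gates were left out, except that tenocyte-like and nerve-sheath-like cells might also pass the fibroblast gate. No marker list held a member. UMIs were summed per class and divided by all UMIs of the class to give CPM. Shares were taken after thinning each cell to 2000 UMIs, which left out no cell. Intervals (95%) are exact Poisson for CPM, exact binomial (Clopper-Pearson) for shares and exact conditional for ratios. Reads are not replicates, and all intervals cover counting error only. Python 3.11.15, numpy 2.4.6, scipy 1.17.1 and pandas 2.3.3 were used, and the scripts recovered the known values of simulated data when tested on them.

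Of the members every one is reported. Of other pathway genes, up to 3 per list, direction and comparison are named by the size of their ratio, except that all 6 lower genes are named for the Gdf10 Inmt fibroblasts. For likeness the 2 genes with the highest r among genes with at least 500 UMIs are named, except that 1 of them is not reported here. The members, the marker lists (fibroblast subtypes above all) and the pathway lists were chosen with earlier results of these data known. Gate thresholds, the activated gate, the Gdf10 Inmt comparison and the alternatives on the macrophage list were set after the data were seen. Alternatives were at least 5000 UMIs, under 5% mitochondrial counts, gates 1.5 times stricter, barcodes of several gates kept, equal weight per cell, subtraction of the library profile, no 5% of cells with the most UMIs, and other thinning.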

Additional observations from a re-analysis of the deposited data

How the results depend on the processing

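The counts of members at least 2-fold higher or lower were within 1.5 times of the reported count in 100 of 108 recomputed values. In nerve-sheath-like cells 2 members instead of 1 were lower with the stricter gate, with barcodes of several gates kept, with equal weight per cell and without the 5% of cells with the most UMIs, Mfap4 having crossed the threshold. In the Gdf10 Inmt gate 2 instead of 1 were lower in cells with at least 5000 UMIs, with the stricter gate and in cells whose macrophage list was under 2000 CPM, the added gene being Fbln2 in the first and last of these and Fbn2, at -2.83, with the stricter gate. In activated cells 2 instead of 1 were higher with the stricter gate, Lox being at 1.02. Of 530 recomputed log2 ratios, 374 stayed inside the interval of the reported value, 155 moved outside it and 1 changed sign although its reported interval did not include 0, Fbn1 in activated cells at 0.01 without the 5% of cells with the most UMIs against -0.11. Another 7 of these values changed sign where the reported interval included 0. All 20 recomputed shares moved with the thinning. Subtraction of the library profile changed no count of members, but at the macrophage list the ratios of the lowest genes in smooth muscle-like cells moved, Fbn1 to -5.26 and Mfap5 to -7.17. The causes were not tested. No paired analysis was possible because the group has 1 library. Small classes limit precision, smooth muscle-like and endothelial-like cells numbering 86 and 85, and counting intervals leave out the spread between animals.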
